A study of Mus musculus with 614 samples.

Results

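The S phase and mitosis genes described here are 44 genes of the cell division program, of 43280 gene symbols in the deposited table. They were named from textbook knowledge, with no threshold on their measured values but with earlier results of these data known: 20 act in DNA replication (S phase members) and 24 act between the end of replication and the end of mitosis (G2/M members). A cell was called cycling where at least 5 of the 24 G2/M members reached 10 TPM, a length-corrected share of the transcripts of a cell, and the share of cycling cells was taken in every sort gate. The same rule over the 20 S phase members gave an S share. All 44 members were found in the table, and 391 of all cells, or 63.7%, were cycling.

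The cells came from untreated adult C57BL/6J mice of 7 to 10 weeks and were captured singly on microfluidic chips for full-length cDNA sequencing. The 598 marrow and 16 blood cells fall into 11 bone marrow gates and 1 blood gate, all without an engineered allele in the labels. LMPP, lymphoid-primed multipotent progenitors (65 cells), were lineage-negative, c-Kit+, CD34+ and Sca-1+, with intermediate CD16/32 and no CD127. GMP, granulocyte-macrophage progenitors (51 cells), were c-Kit+, CD34+ and Sca-1- with high CD16/32. CLP, common lymphoid progenitors (48 cells), were CD127+, CD34+, Flt3+ and Thy-1- with low c-Kit and Sca-1. cMoP, common monocyte progenitors (66 cells), were CD115+ and c-Kit+ with high Ly6C, without CD11b or Flt3. CDP, common dendritic cell progenitors (58 cells), were Flt3+ with intermediate c-Kit, and lacked CD11c, MHCII, CD115 and IL7R. Pre-pro-B cells (30 cells) were Flt3+, B220+, CD43+, CD93+, CXCR4+ and IL7R+ with low CD117 and CD24. The precursors of dendritic cells (pre-DC) were CD11c+ and Flt3+ without MHCII, CD172α or B220. In marrow they were split by SiglecH and Ly6C into SiglecH-Ly6C+ (68 cells), SiglecH+Ly6C+ (45 cells), SiglecH+Ly6C- (70 cells) and SiglecH-Ly6C- (70 cells), and in blood they were kept as 1 gate of 16 cells. Plasmacytoid dendritic cells (pDC, 27 cells) were B220+ and SiglecH+. No label names an animal, so each gate is 1 sample: no test between gates was possible, no p-value is given, SDs are over cells, and intervals are exact Clopper-Pearson 95% intervals that cover counting error only.

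As background, a dividing cell first loads the MCM helicase at origins, then copies its DNA with a clamp, a clamp loader, polymerases and a supply of deoxynucleotides, and then condenses and separates its chromosomes under the control of CDK1, its cyclins and the Aurora and Polo kinases. Replication genes are driven by E2F factors as cells enter S phase, and mitotic genes later by B-Myb, FoxM1 and the DREAM and MuvB complexes, often through CCAAT boxes and an element called CHR. In the marrow, progenitors divide to amplify their lineage, whereas differentiated pDC are known to be largely out of the cell cycle.

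TPM keep no read counts and leave the depth of a cell unknown. In its place stands the count of genes seen in the cell at 1 TPM, whose median per gate ran from 3280 in CLP to 6671 in cMoP. The library numbers in the labels form 9 runs, and the labels do not say what a run is. Gates of the same run could be compared in 6 of the 10 contrasts. No library number occurred in more than 1 cell. In pre-pro-B cells Flt3, Ptprc and Il7r, genes of sorted surface proteins, were at 1 TPM or more in 96.7%, 86.7% and 83.3% of cells, whereas Ebf1 was in 6.67% and Cd79a in 20%, and Pax5, Vpreb1 and Igll1, which mark committed B cells, were in none. In blood pre-DC the markers Flt3, Itgax and Irf8 were at 1 TPM or more in 50%, 43.8% and 56.2% of cells, with medians of 0.925, 0.225 and 5.19 TPM. In the 4 marrow pre-DC gates Irf8 was in 72.1 to 98.6% and Flt3 in 61.8 to 85.7% of cells, but Itgax in 28.6 to 68.9%. Markers of erythroid, committed B, plasma, T and NK, basophil and mast, macrophage or platelet cells reached 10 TPM for 2 or more genes in 33 cells. A gate held from 0 (pDC) to 8 (GMP) of them. Leaving those cells out moved no cycling share beyond its interval, but so few cells could hardly move one, and no conclusion is drawn from this. The pre-pro-B gate also held pDC genes: the summed TPM of Siglech, Tcf4, Bst2 and Spib had a median of 3234 (328.9 to 6283) there, 4643 (86.6 to 12712) in pDC and 225 (1.93 to 6663) in CLP, and 29 of the 30 cells had 2 or more of these markers. The granule protein genes Elane and Mpo, high in GMP, had medians of 11.2 and 13.2 TPM (means of 12.6 and 13.6) in pre-pro-B cells and of 8.12 and 24.7 TPM (means of 17.997 and 192.5) in CLP of the same run, beside means of 10588 and 13470 TPM in GMP. The part of these GMP genes in the member levels of CLP and pre-pro-B cells was not tested.

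The members differ in their promoters in a way that played no part in choosing them. RefSeq promoters (GRCm38.p6, 250 bases before to 50 bases after the start) were listed for 37 of the 44 members, all but Mcm4, Gins2, Rfc2, Ccna2, Aurkb, Tpx2 and Stmn1. For 32 of the 37, bases after the start were found in a transcript of the gene. The others were kept, and a match or the lack of one depends on the start listed. The letters CCAAT, searched on both strands like all letters here, were in 12 of 17 S phase promoters (70.6%) and 17 of 20 G2/M promoters (85%), against 37.9% of 27025 promoters. The CHR letters TTTGAA or TTCGAA were in 2 of 17 S phase promoters (11.8%) and 14 of 20 G2/M promoters (70%), against 19.4% of all. The E2F letters TTTCCCGC, TTTGGCGC or TTCCCGCC, the first and the last of which can overlap, were in 9 of 17 S phase promoters (52.9%) and 0 of 20 G2/M promoters, against 3.31% of all. A match is a description of letters and not a bound site. The 120 bases before the start are shown for 3 S phase and 4 G2/M members whose levels are described in the text, with CCAAT, CHR and E2F letters of either strand in capitals; Nusap1 is shown as a member with none of these letters in the stretch.
Mcm6, chr1:128359706-128359825, - strand: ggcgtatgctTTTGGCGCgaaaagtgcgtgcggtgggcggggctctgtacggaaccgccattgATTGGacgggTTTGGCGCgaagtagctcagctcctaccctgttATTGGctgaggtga
Rrm1, chr7:102441575-102441694, + strand: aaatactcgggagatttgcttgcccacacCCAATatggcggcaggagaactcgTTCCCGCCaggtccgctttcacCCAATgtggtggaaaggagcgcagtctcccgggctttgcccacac
Hells, chr19:38930870-38930989, + strand: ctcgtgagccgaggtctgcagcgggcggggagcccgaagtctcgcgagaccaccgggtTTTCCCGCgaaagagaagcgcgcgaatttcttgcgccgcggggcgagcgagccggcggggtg
Cdk1, chr10:69352913-69353032, - strand: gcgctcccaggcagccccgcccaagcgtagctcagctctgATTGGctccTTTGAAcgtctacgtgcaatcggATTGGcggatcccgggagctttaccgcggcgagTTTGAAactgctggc
Ube2c, chr2:164769809-164769928, + strand: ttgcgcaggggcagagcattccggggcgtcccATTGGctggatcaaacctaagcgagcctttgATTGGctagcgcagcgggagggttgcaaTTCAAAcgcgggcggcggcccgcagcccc
Kif11, chr19:37376262-37376381, + strand: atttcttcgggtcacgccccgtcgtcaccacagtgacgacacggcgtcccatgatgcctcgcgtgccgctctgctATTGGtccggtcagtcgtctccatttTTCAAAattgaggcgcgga
Nusap1, chr2:119618178-119618297, + strand: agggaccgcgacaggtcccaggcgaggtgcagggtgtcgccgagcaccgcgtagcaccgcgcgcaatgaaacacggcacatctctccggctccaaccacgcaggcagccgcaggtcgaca
In the stretches shown, Mcm6 holds 2 CCAAT and 2 E2F matches, Rrm1 holds 2 and 1, and Hells holds 1 E2F match alone. Cdk1 holds 2 CCAAT and 2 CHR matches, Ube2c holds 2 and 1, and Kif11 holds 1 of each.

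Every member had its lowest mean in blood pre-DC, and the highest means were spread over 4 marrow gates. Levels are means over cells of log2(TPM + 1), with the SD over cells. The 20 S phase members were highest in GMP (10 members) or cMoP (10 members). The 24 G2/M members were highest in GMP (10 members), pre-pro-B cells (8 members: Cenpf, Nusap1, Tpx2, Birc5, Ube2c, Cks1b, Stmn1 and Tuba1b), cMoP (4 members) and SiglecH+Ly6C+ pre-DC (2 members: Kif11 and Kif23). The median of the S phase member means was 6.76 in cMoP, 6.44 in GMP, 4.29 in SiglecH+Ly6C- pre-DC and 0.44 in blood pre-DC. That of the G2/M members was 5.34 in GMP, 4.93 in pre-pro-B cells, 3.90 in cMoP, 3.82 in SiglecH+Ly6C+ pre-DC and 0.31 in blood pre-DC. The gates therefore do not stand in the same order for replication and for mitosis genes: CDP had an S phase median of 3.76, above 3.65 in pre-pro-B cells, and a G2/M median of 1.46 that lay beside that of pDC, 1.45.

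**Figure D1:**
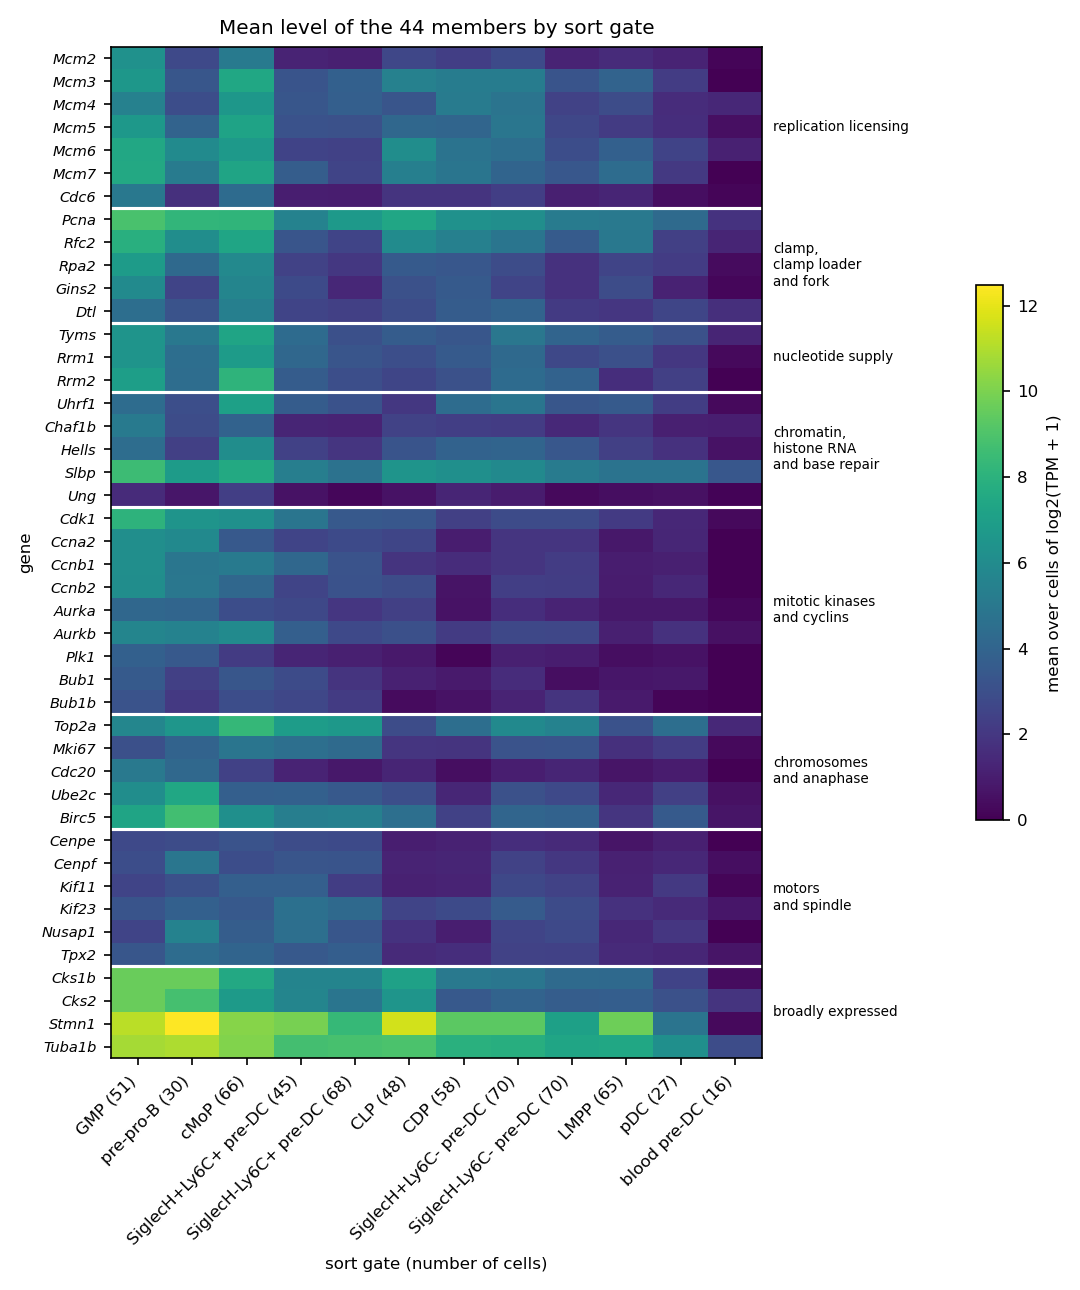
Mean over cells of log2(TPM + 1) for each of the 44 members (rows, grouped by role) in each of the 12 sort gates (columns, number of cells in brackets). GMP, pre-pro-B cells and cMoP, at the left, are high in most rows, blood pre-DC, at the right, is lowest in all 44 rows, and Stmn1 and Tuba1b are the brightest rows of the G2/M members in every marrow gate.

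Among the licensing genes, Mcm2 to Mcm7 encode the subunits of the replicative helicase and Cdc6 loads it at origins. Mcm6 reached 7.49 ± 2.29 in GMP, 6.69 ± 2.50 in cMoP, 6.10 ± 3.59 in CLP and 5.97 ± 3.33 in pre-pro-B cells, against 2.53 ± 2.89 in pDC and 1.14 ± 3.12 in blood pre-DC. Its TPM per cell ran from 0 to 699 with a median of 273.8 in GMP, and from 0 to 622 with a median of 0 in blood pre-DC. The ranges overlapped, but 90.2% of GMP and 12.5% of blood pre-DC were at 10 TPM or more. Mcm7 was listed at 0 in all 16 blood cells, and 92.2% of GMP were at 10 TPM or more. Cdc6 was the least often seen of the group, at 10 TPM or more in 76.5% of GMP, 60.6% of cMoP and at most 31.4% of any other gate, the latter in SiglecH+Ly6C- pre-DC.

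The clamp and fork genes include Pcna, the sliding clamp, Rfc2, a subunit of the clamp loader, Rpa2, which coats single strands, Gins2, part of the active helicase, and Dtl, a substrate adaptor for clamp-linked protein destruction. Pcna was the S phase member with the highest mean in every gate but blood pre-DC and pDC, at 8.88 ± 1.17 in GMP, 8.19 ± 2.51 in pre-pro-B cells, 6.74 ± 3.53 in SiglecH-Ly6C+ pre-DC and 1.81 ± 2.89 in blood pre-DC. Among the SiglecH-Ly6C+ cells it stood apart from its partners: 79.4% of them had Pcna at 10 TPM or more, but 30.9% had Rfc2 and 25% had Rpa2. In CLP the same 3 genes were at 77.1%, 68.8% and 39.6%. Nucleotides are supplied by Tyms, thymidylate synthase, and by Rrm1 and Rrm2, the large and the small subunit of ribonucleotide reductase. Rrm2 was at 10 TPM or more in 96.1% of GMP and 95.5% of cMoP, in 56.7% of pre-pro-B cells, and in 16.9% of LMPP, and it was listed at 0 in every blood pre-DC. Its partner Rrm1 reached 40% of LMPP and 60% of pre-pro-B cells. Of the chromatin genes, Uhrf1, which carries DNA methylation through replication, was at 10 TPM or more in 92.4% of cMoP and 66.7% of GMP, and Hells, a remodeler, had means of 6.11 ± 1.92 and 4.47 ± 2.03. Chaf1b, a subunit of the chromatin assembly factor, went the other way, at 3.91 ± 2.92 in cMoP and 5.11 ± 2.88 in GMP. Slbp, which binds histone RNA, was the S phase member seen most often in blood pre-DC, in 37.5% of cells at 10 TPM or more, and in pDC, in 51.9%. Ung, a uracil glycosylase of base repair, was the rarest, with at most 34.8% of cells, in cMoP.

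Among the mitotic kinases and cyclins, Cdk1 drives entry into mitosis with Ccnb1 and Ccnb2, Ccna2 acts before them, Aurka and Plk1 build the spindle, and Aurkb, Bub1 and Bub1b guard chromosome attachment. Cdk1 reached 8.06 ± 2.22 in GMP, 6.44 ± 4.11 in pre-pro-B cells and 6.27 ± 3.21 in cMoP, then 4.85 ± 4.32 in SiglecH+Ly6C+ pre-DC, and 2.35 ± 3.20 in CDP. Its median per cell was 364 TPM in GMP (0 to 1705), 397 TPM in pre-pro-B cells (0 to 1634) and 0 in LMPP, CDP, SiglecH+Ly6C- pre-DC, pDC and blood pre-DC. The same gates also held some cells with high Cdk1, up to 2732 TPM in SiglecH+Ly6C- pre-DC and 666.9 TPM in CDP. Ccnb2 was at 10 TPM or more in 78.4% of GMP, 56.7% of pre-pro-B cells and 5.17% of CDP. Plk1 was at that level in 56.9% of GMP, 46.7% of pre-pro-B cells and 1.72% of CDP.

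Top2a untangles chromosomes, Mki67 coats them, Birc5 belongs to the complex of Aurkb, and Cdc20 and Ube2c drive the protein destruction of anaphase. Top2a was frequent in CDP, where at most 27.6% of cells had another gene of this group: it was at 10 TPM or more in 95.5% of cMoP, 83.3% of pre-pro-B cells, 72.1% of SiglecH-Ly6C+ pre-DC and 56.9% of CDP, but 30.8% of LMPP and 31.2% of CLP. Birc5 had a median of 901.8 TPM in pre-pro-B cells (0 to 3389) and of 253 TPM in GMP (0 to 2066), but 1.90 TPM in CDP (0 to 1082). Ube2c was at 10 TPM or more in 66.7% of pre-pro-B cells, 78.4% of GMP and 10.3% of CDP. The cell ranges of Birc5 overlapped. Of the motor and spindle genes, Kif11 and Kif23 are motors, Nusap1 and Tpx2 bind spindle microtubules, and Cenpe and Cenpf sit at centromeres. Nusap1 reached 5.53 ± 3.26 in pre-pro-B cells and 4.57 ± 4.17 in SiglecH+Ly6C+ pre-DC, but 2.55 ± 3.04 in GMP. GMP had the highest kinase levels and only moderate motor and spindle levels: the median of the 9 kinase and cyclin means was 5.66 in GMP and 2.68 in SiglecH+Ly6C+ pre-DC, whereas that of the 6 motor and spindle means was 2.85 and 3.64.

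The remaining G2/M members are Cks1b and Cks2, small partners of CDK1, Stmn1, a microtubule regulator, and Tuba1b, an alpha tubulin. They were grouped here as broadly expressed genes, but the Cks genes were less broad. Over 8 gates with cycling and other cells, 62.8% of the other cells had Stmn1 at 10 TPM or more and 63.1% had Tuba1b. For Cks1b and Cks2 this was 23.4% and 22.9%, against 88.7% and 77.2% of cycling cells. The cycling rule itself counts these genes. Stmn1 had medians of 6519 TPM among pre-pro-B cells, 3077 TPM among CLP, 1808 TPM among LMPP and 8.17 TPM among pDC, and was at 10 TPM or more in 93.8% of LMPP. Tuba1b was at that level in 66.7% of pDC and 50% of blood pre-DC. Tuba1b is nearly identical to other alpha tubulin genes and the Cks genes have copies in the genome, so their values could include reads of near-identical genes.

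The share of cycling cells fell into an upper group of 3 gates, a broad middle and a lower end. All 51 GMP (interval 93.0 to 100%), all 66 cMoP (94.6 to 100%) and all 30 pre-pro-B cells (88.4 to 100%) were cycling. In the middle were 70.6% of SiglecH-Ly6C+ pre-DC (48 of 68, 58.3 to 81.0%), 66.7% of SiglecH+Ly6C+ pre-DC (30 of 45, 51.05 to 80%), 60% of SiglecH+Ly6C- pre-DC (42 of 70, 47.6 to 71.5%), 58.3% of CLP (28 of 48, 43.2 to 72.4%), 53.4% of CDP (31 of 58, 39.9 to 66.7%) and 50% of SiglecH-Ly6C- pre-DC (35 of 70, 37.8 to 62.2%). At the lower end were 33.8% of LMPP (22 of 65, 22.6 to 46.6%), 29.6% of pDC (8 of 27, 13.8 to 50.2%) and 0 of 16 blood pre-DC, which allows a share of up to 18.75% by the limit of 3 counts and 20.6% by the exact interval. Between neighbours in this order the intervals were apart only from pre-pro-B cells to SiglecH-Ly6C+ pre-DC. The SiglecH+Ly6C- gate was split over runs, with 58.8% of 51 cells and 63.2% of 19 cells.

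**Figure D2:**
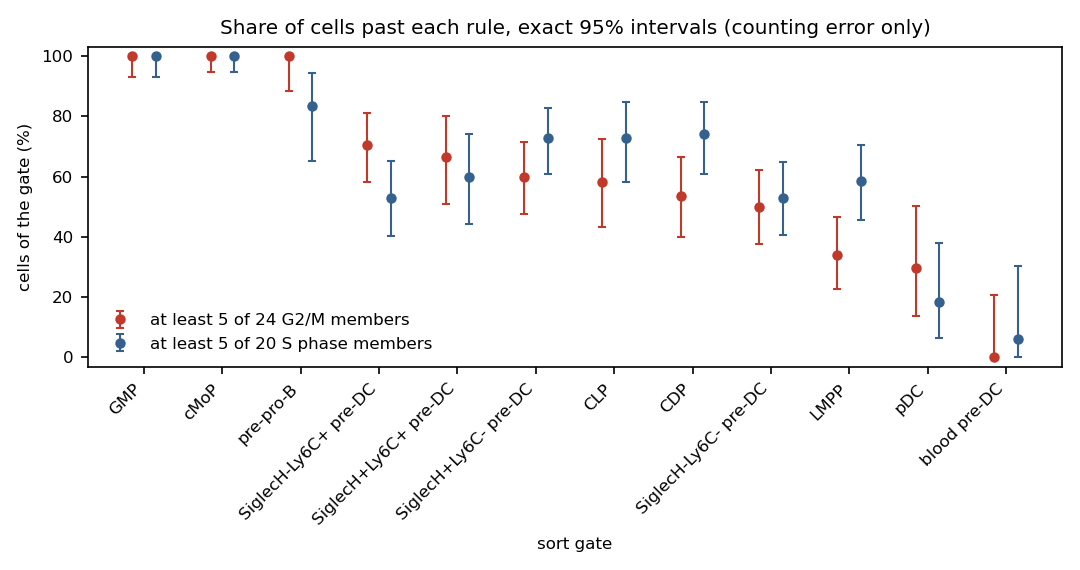
Share of cells (%) in each of the 12 gates with at least 5 of 24 G2/M members (red) and at least 5 of 20 S phase members (blue) at 10 TPM or more, with exact 95% intervals. GMP and cMoP are at 100% for both, LMPP, CLP, CDP and the Ly6C- pre-DC have a higher S share than cycling share, and the Ly6C+ pre-DC, pre-pro-B cells and pDC the reverse.

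Cells with 5 to 7 G2/M members differed from cells with more of them in genes outside the rule, and the middle of the order changes with where the line is drawn. The median number of G2/M members per cell was 18 in GMP, 17 in pre-pro-B cells, 15 in cMoP, 13 and 8 in the SiglecH+ and SiglecH- pre-DC with Ly6C, 5 and 4.5 in those without Ly6C, 5 in CLP and CDP, 3 in LMPP, 2 in pDC and 1 in blood pre-DC. Just inside the line 44 cells had 5 members, and just outside it 49 cells had 4. The 87 cells with 5 to 7 members held a median of 3 of the 4 broadly expressed genes and 2 of the other 20. Their median count of 40 other mitosis genes at 10 TPM was 6, against 3 in the 223 cells with 0 to 4 members and 21 in the cells with 8 or more, 49.5% of all. Their median count of 30 other replication genes was 10, against 3 and 16.5. Thus cells with 5 to 7 members lay near the lowest class for mitosis genes and between the classes for replication genes. These ranges of member counts were chosen after the values were seen, and the median number of genes also differed, at 3878, 4502 and 5198.5 in the 3 classes.

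CDP and pDC stood at opposite ends of this pattern. Of 58 CDP, 19 had 5 to 7 members and 12 had 8 or more, so that 20.7% were past a line of 8 members, and 19% were past the line of 5 without Cks1b, Cks2, Stmn1 and Tuba1b. Of 27 pDC, none had 5 to 7 members and 8 had 8 or more, with a median of 21.5 of the 40 other mitosis genes, so that the share stayed at 29.6% under both changes. CDP thus stood above pDC at 5 members and below it in both of these, although their intervals overlap at 5 members. CDP were also below pDC at 15 members and at 50 or 100 TPM, and above pDC at 3 members (86.2% and 37.04%), at 1 TPM (91.4% and 74.1%) and in cells with at least 4000 genes (56.4% and 42.1%). The shares of SiglecH+Ly6C- pre-DC and CLP also went down, to 34.3% and 37.5% without the 4 genes, whereas SiglecH+Ly6C+ pre-DC had 53.3%. At 15 or more members, GMP had 66.7%, pre-pro-B cells 60%, cMoP 53%, SiglecH+Ly6C+ pre-DC 46.7%, SiglecH-Ly6C+ pre-DC 29.4% and CDP 10.3%. SiglecH+Ly6C+ pre-DC were split between cells with very many and very few members: 25 of 45 had 8 or more, 5 had 5 to 7 and 15 had 0 to 4.

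**Figure D3:**
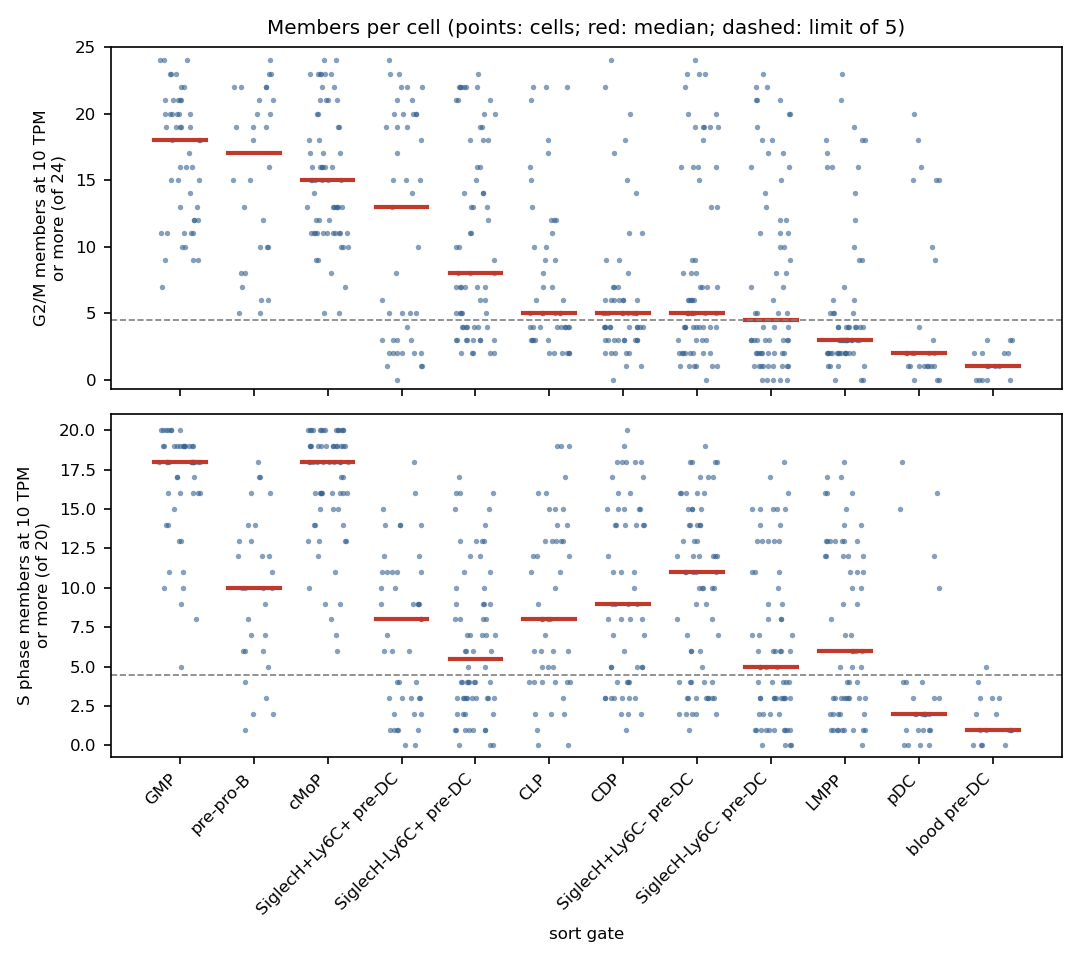
Number of G2/M members (top, of 24) and S phase members (bottom, of 20) at 10 TPM or more in each cell by gate; points are cells, red lines are medians and the dashed line is the limit of 5. GMP, pre-pro-B cells and cMoP have no cell under the limit in the top panel, and all 16 blood pre-DC have 3 G2/M members or fewer.

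The cycling pDC had lower levels of pDC genes than the other pDC. In the 8 pDC with 8 or more G2/M members, Siglech, a surface receptor of pDC, had a median of 711 TPM (4.37 to 2437), against 2677 TPM (500.5 to 7779) in the 19 pDC with 0 to 4. Bst2, an interferon-induced surface protein, had medians of 32.4 TPM (0 to 1669) and 847.8 TPM (0 to 2815). Tcf4, the factor that directs pDC fate, had 513 TPM (21.6 to 1857) and 1240 TPM (4.98 to 3596), and Spib, a further pDC factor, 51.4 TPM (0 to 308.2) and 270 TPM (1.38 to 1245). All 4 markers were lower by their medians in the cycling cells, with overlapping ranges, and Siglech was at 1 TPM or more in all 8. No pDC had 2 or more markers of erythroid, committed B, plasma, T and NK, basophil and mast, macrophage or platelet cells. Markers of other sort gates were present. At least 2 pre-DC markers were in 10 pDC (6 cycling), CDP markers in 6 (4 cycling) and CLP markers in 12 (5 cycling). For cMoP markers it was 20 (6 cycling), for pre-pro-B markers 19 (5 cycling), for LMPP markers 3 (1 cycling) and for GMP markers 0. These lists share genes such as Flt3. In CDP the 3 marker genes did not go one way: Irf8, a dendritic and monocytic transcription factor, had a median of 722 TPM in the 12 cells with 8 or more members and 125.5 TPM in the 27 cells with 0 to 4, whereas Flt3, a growth factor receptor, had 170 and 309 TPM, and Kit, another one, 0 and 0.56 TPM. In CLP, Dntt, the lymphoid DNA polymerase that adds bases at antigen receptor joints, had 660 TPM in 18 cells and 2686 TPM in 20 cells of the same classes, and the other CLP markers Il7r (10.0 and 45.1 TPM) and Flt3 (113 and 193.5 TPM) were also lower by their medians in the former.

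The S share placed the gates in another order. It was 100% in GMP and cMoP, 83.3% in pre-pro-B cells (65.3 to 94.4%), 74.1% in CDP (60.96 to 84.7%), 72.9% in CLP (58.2 to 84.7%), 72.9% for the SiglecH+Ly6C- (60.9 to 82.8%) and 60% for the SiglecH+Ly6C+ pre-DC (44.3 to 74.3%), 58.5% in LMPP (45.6 to 70.6%), 52.9% for both SiglecH- gates, 18.5% in pDC (6.30 to 38.1%) and 6.25% in blood pre-DC (1 of 16, 0.158 to 30.2%). Over all cells 339 were past both rules, 52 past the G2/M rule alone, 76 past the S phase rule alone and 147 past neither. Cells past the S phase rule alone made up 27.7% of LMPP, 25.9% of CDP and 22.9% of CLP, but 7.35% of SiglecH-Ly6C+ pre-DC and none of the pre-pro-B cells or pDC. Cells past the G2/M rule alone made up 25% of SiglecH-Ly6C+ pre-DC (17 of 68, 15.3 to 36.98%), 17.8% of SiglecH+Ly6C+ pre-DC and 16.7% of pre-pro-B cells, but 3.08% of LMPP and 5.17% of CDP. By these rules the Ly6C+ pre-DC and the pre-pro-B cells leaned to mitosis genes, and LMPP, CLP and CDP to replication genes. Without the 4 broadly expressed genes the cycling share was 76.7% in pre-pro-B cells and 53.3% in SiglecH+Ly6C+ pre-DC, below their S shares, so the lean turns round in these gates. In SiglecH-Ly6C+ pre-DC the cycling share was then 54.4%, close to the S share of 52.9%, so little of the lean is left. The rules ask for 5 of 24 and 5 of 20 members, so the cycling and S shares are not on the same scale. Over the cells of a gate, the counts of S phase and G2/M members went together in LMPP (Pearson r = 0.49, n = 65), CLP (0.51, n = 48) and pDC (0.56, n = 27), hardly in cMoP (0.09, n = 66), and ran against each other in pre-pro-B cells (-0.35, n = 30); the points of a gate share its sort, most share a run (pDC and SiglecH+Ly6C- pre-DC span 2), and the counts share depth.

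Cells with more genes at 1 TPM had more members. Cycling cells had a median of 5036 such genes and the other cells 3878, and cycling cells were ahead in each of the 8 gates that hold at least 5 cells of both classes. cMoP and GMP, with the highest medians (6671 and 5792 genes), were fully cycling. Pre-pro-B cells were too, at a median of 3315.5 genes, and CDP had 5208 with 53.4% cycling. The part of depth in the shares was not tested. Among cells with 4000 or more but fewer than 6000 genes, 11 of 13 LMPP (84.6%, 54.6 to 98.1%) and all 6 CLP (100%, 54.1 to 100%) were cycling. So were 26 of 50 CDP (52%, 37.4 to 66.3%) and 7 of 18 pDC (38.9%, 17.3 to 64.3%). Since 33.8% of all LMPP were cycling, the place of LMPP near the lower end holds for LMPP of all depths and not for those in this range.

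Replication genes, which the G2/M rule did not use, were higher in the cycling cells of the same gate. In 8 gates with both kinds of cell (244 cycling and 207 other cells, each gate with equal weight), 17 of 20 S phase members were higher by at least 1 on the log2 scale, which is 2-fold. The comparison was made over the 10868 genes that reached 1 TPM in 10% or more of these cells, of which 10.1% were so, and the median of all was 0.21 against 2.36 for the S phase members. This comparison was added after the values were seen. Cycling cells also had more genes at 1 TPM in each of the 8 gates, and the part of depth in these differences was not tested. The largest differences were those of Rrm2, 4.15, Uhrf1, 3.88, Tyms, 3.86, and Rrm1, 3.60, each higher in all 8 gates. Rrm2 was at 10 TPM or more in 56.4% of cycling and 4.89% of other cells, averaged over the gates, and Cdc6 in 28.2% and 5.18%. The smallest differences were those of the helicase gene Mcm2 and of genes of chromatin and base repair: Mcm2 by 0.94, Chaf1b by 0.57 and Ung by 0.46, each higher in 7 of 8 gates. Slbp and Pcna were frequent in the other cells too, at 55.4% and 50.9%.

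Of 30 other replication genes, 26 were past 2-fold in the same comparison, with a median of 1.83. Lig1, which seals nicks, differed by 3.59, and Gmnn, the licensing inhibitor geminin, by 3.43, whereas Chaf1a, of the chromatin assembly factor, differed by 0.34 and Orc1, of the origin complex, by 0.22. Of 40 other mitosis genes, 35 were past it, with a median of 2.43; Smc2, a condensin subunit, differed by 5.00, the spindle checkpoint gene Mad2l1 by 4.18, and the securin gene Pttg1 by 0.07. Of 11 regulators, 4 were past it, with a median of 0.86. Foxm1, a driver of mitotic genes, differed by 2.07 and reached 10 TPM in 29.6% of cycling and 1.90% of other cells. Tfdp1, the partner of E2F proteins, differed by 1.99, whereas Lin54, a DNA-binding part of MuvB, differed by 0.36 and E2f3 by 0.18.

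Within gates, members went together in the same cells mainly with members of their own list. After gate means were subtracted, the median Pearson r over all cells was 0.44 for 276 pairs of G2/M members, 0.33 for 190 pairs of S phase members and 0.09 for 480 mixed pairs. These values are descriptions, since the genes of a pair are read in the same cells and share their depth. The closest pairs were Kif11 with Nusap1 (0.72), Nusap1 with Birc5 (0.70) and Mki67 with Birc5 (0.69). The stretch of the Nusap1 promoter shown holds none of the letters searched, whereas that of Kif11 holds CCAAT and CHR letters. The closest mixed pair was Rrm2 with Top2a (0.62). Rrm2 had a median r of 0.36 with the other S phase members and 0.36 with the G2/M members, and Rrm1 0.33 and 0.31, so the subunits of ribonucleotide reductase went with both lists. Stmn1 also did, with 0.35 and 0.35. At the other end, Ung had a median r of -0.07 with G2/M members and Chaf1b -0.06.

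**Figure D4:**
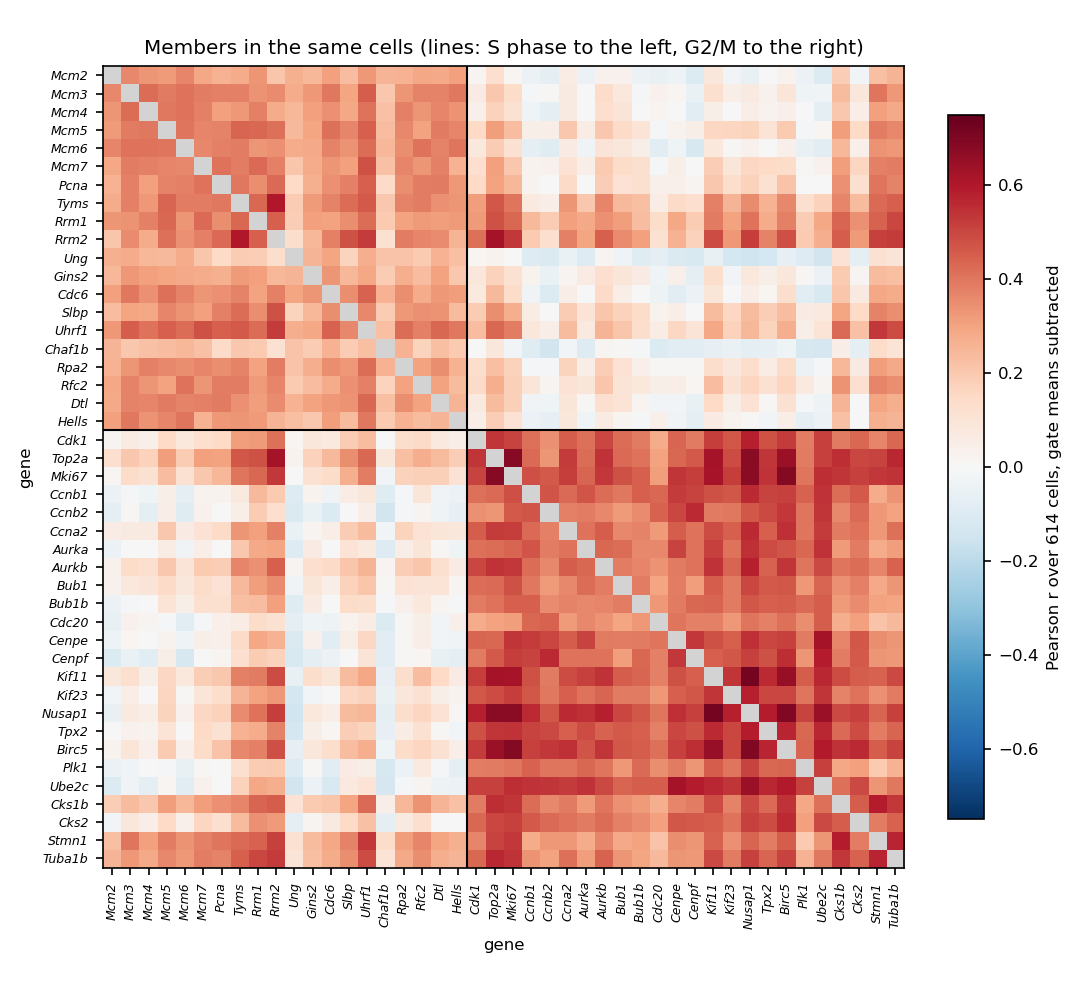
Pearson r over the 598 marrow and 16 blood cells of log2(TPM + 1), less the gate mean, for each pair of the 44 members; black lines part S phase from G2/M members. The G2/M square is the darkest red, the mixed squares are near white (median 0.09) except for Tyms, Rrm1, Rrm2 and Uhrf1 and, among G2/M members, Top2a, Stmn1 and Tuba1b.

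Among 9482 genes outside the members, those that followed the number of G2/M members per cell most closely, less the gate mean, were Cdca8 (r = 0.74), a partner of Aurkb, Prc1 (0.74), which bundles the central spindle, and Cdca3 (0.70), followed by Tacc3, Kif20b, Kif22, Pbk, Ckap2l, Casc5 and Spc25 (0.66 to 0.68). Those that followed the number of S phase members were Lig1 (0.70), Dut (0.63), which removes dUTP, and Prim1 (0.59), the primase, followed by Atad2, Cdca7, Siva1, Tipin, Tk1 and Asf1b (0.55 to 0.58). The likeness is over the cells of all 12 gates, and the genes of a cell share its depth.

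Gates were then compared by the difference in the mean of log2(TPM + 1), and a gene was called past 2-fold where that difference was at least 1 in size. A difference on this scale understates the change of low genes. The filter kept genes that reached 1 TPM in 10% or more of the cells of the gates compared, and the counts of members are read beside the share of all such genes past 2-fold. In none of the 10 contrasts did the range over cells of any member part the gates completely. Several contrasts share a gate: GMP, CLP and pre-pro-B cells were compared in all pairs, and SiglecH+Ly6C- pre-DC enter 3 contrasts, so their values are given side by side and not as independent results.

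**Figure D5:**
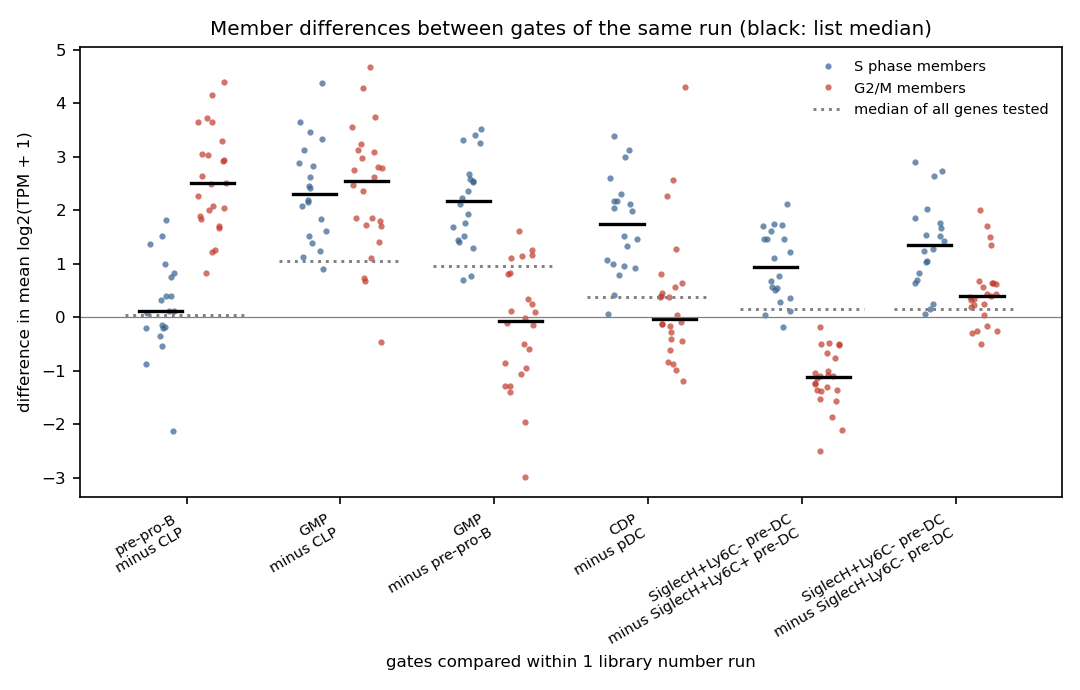
Difference in mean log2(TPM + 1) of each member (points; blue, S phase; red, G2/M) in the 6 contrasts of gates that share a run, with the list median (black) and the median of all genes tested (dotted). From pre-pro-B cells to CLP the red points are high and the blue ones near 0, and from SiglecH+Ly6C- to SiglecH+Ly6C+ pre-DC the blue points are above and the red points below 0.

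Pre-pro-B cells and CLP, from the same run and of like depth (medians of 3315.5 and 3280 genes), differed more in mitosis genes than in replication genes. All 24 G2/M members passed the filter and 23 of them were past 2-fold higher in pre-pro-B cells, where 12.8% of 8373 genes were. Their median was 2.51, and that of all genes 0.05. Of the 20 S phase members, which all passed the filter too, 4 were past 2-fold higher and 1 lower, where 8.41% of all genes were lower, and their median was 0.12. Ube2c differed by 4.40, with 66.7% of pre-pro-B cells and 22.9% of CLP at 10 TPM or more. Birc5 differed by 4.15, with medians of 901.8 TPM (0 to 3389) and 4.46 TPM (0 to 2973), and Nusap1 by 3.72, with 104 TPM (0 to 683.2) and 0 TPM (0 to 587). The cells of both gates spread from 0 to high values, and it was the middle of the distribution that differed. The exception was Stmn1, at 0.83, which was high in both gates. Among S phase members the higher ones were Rrm2 (1.82), Rrm1 (1.52), Tyms (1.38) and Uhrf1 (1.0001), 3 of which supply nucleotides. Mcm3 was the lower one, at -2.13, with a median of 1.36 TPM (0 to 1109) in pre-pro-B cells and 116 TPM (0 to 930) in CLP. The other licensing genes lay between -0.34 and 0.11. Of the 40 other mitosis genes 33 were past 2-fold higher, led by Cenpa, the centromere histone (3.86), and Prc1 (3.801). Of 30 other replication genes 10 were past 2-fold higher and 1, Pola2 (-1.23), was lower, where 12.8% and 8.41% of all genes were. The medians of these mitosis and replication genes were 1.78 and 0.49, beside 0.05 for all genes. Of 11 regulators E2f8 alone was past 2-fold (1.26). The pDC markers given above also differed between these gates, and their part in the result was not tested.

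GMP were higher than CLP of the same run for nearly every member, but so were most other genes. Of the S phase members 19 of 20 and of the G2/M members 21 of 24 were past 2-fold higher, where 51.8% of 9854 genes were, at medians of 2.30 and 2.55 beside 1.05 for all genes; none was lower, where 2.24% of genes were. GMP had a median of 5792 genes and CLP 3280, and the part of this gap in the differences was not tested. Cdk1 differed by 4.67, Rrm2 by 4.37 and Ccnb1 by 4.29, whereas Stmn1 differed by -0.46. From the log2 of the mean TPM in place of the mean log2, the medians were 0.43 and 0.51, and Cdk1 was at 10 TPM or more in 92.2% of GMP and 33.3% of CLP. In cells with at least 4000 genes, of which CLP have few, they were 0.49 and 0.38.

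Against pre-pro-B cells, GMP of the same run were higher in replication genes, and mixed in mitosis genes on this scale. Of the S phase members 18 of 20 were past 2-fold higher, with a median of 2.17, where 48.6% of 9793 genes were higher and the median of all was 0.96. Mcm2 differed by 3.53, with a median of 128 TPM (0 to 412) in GMP and 0.52 TPM (0 to 527) in pre-pro-B cells, and Gins2 by 3.42. Of the G2/M members 5 were higher, led by Cdk1 (1.62) and Ccnb1 (1.25), and 6 were lower, where 3.78% of genes were. The lower ones were Nusap1 (-2.98), Cenpf (-1.95), Birc5 (-1.39), Stmn1 (-1.29), Ube2c (-1.28) and Tpx2 (-1.06), of which Nusap1, Cenpf and Tpx2 belong to the spindle and centromere. Nusap1 had a median of 104 TPM among pre-pro-B cells and 0.51 TPM (0 to 311.3) among GMP. The median over G2/M members was -0.07. None of the G2/M members was past 2-fold higher by the log2 of the mean TPM, with a pseudocount of 10 or after the median of all genes was subtracted, and 14, 5 and 12 were lower. By the log2 of the mean TPM, the S phase median was 0.34. GMP had a median of 5792 genes and pre-pro-B cells 3315.5.

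SiglecH+Ly6C- pre-DC, set against SiglecH+Ly6C+ pre-DC of the same run (51 and 45 cells), were higher in replication genes and lower in mitosis genes. All 44 members passed the filter. Of the S phase members 10 of 20 were past 2-fold higher and none lower, where 8.64% of 11372 genes were higher, and the median was 0.94. Of the G2/M members 17 of 24 were past 2-fold lower and none higher, where 3.32% of genes were lower, and the median was -1.12; the median of all genes was 0.16. Mcm5 differed by 2.13, with a median of 31.8 TPM (0 to 1326) in SiglecH+Ly6C- and 3.21 TPM (0 to 585) in SiglecH+Ly6C+ pre-DC. Mcm3 differed by 1.75, Dtl by 1.73 and Cdc6 by 1.70. Licensing genes made up 6 of the 10: all but Mcm7, at 0.57. Ccnb1 differed by -2.49 and Cdk1 by -2.10, the latter with medians of 0 (0 to 2732) and 13.99 TPM (0 to 3957.45). Nusap1 differed by -1.86, with medians of 0.45 and 28.8 TPM. The nucleotide genes Rrm1 (0.03), Tyms (0.36) and Rrm2 (0.55) all stayed within 2-fold. The cell shares, which count the same members, were 58.8% against 66.7% cycling and 72.5% against 60% past the S phase rule, with overlapping intervals, at medians of 5031 and 4540 genes. Of the other lists, 9 of 30 replication genes were past 2-fold higher, led by Pold2 (1.54), and 8 of 40 mitosis genes lower, led by Prc1 (-1.99) and Cenpa (-1.51); none of the 11 regulators was past it. With a pseudocount of 10 the counts were 4 S phase and 6 G2/M members, and by the log2 of the mean TPM 4 G2/M members were lower.

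SiglecH+Ly6C- pre-DC were also set against SiglecH-Ly6C- pre-DC of another shared run, with 19 and 70 cells. Of the S phase members 14 of 20 were past 2-fold higher, where 14.5% of 10895 genes were, with a median of 1.35, and none was lower, where 4.18% of genes were. Mcm4 differed by 2.90, with medians of 100.2 TPM (0 to 654.1) and 0.38 TPM (0 to 598), Mcm3 by 2.73 and Mcm6 by 2.64, whereas Mcm7 differed by 0.05. Of the G2/M members 4 of 24 were higher, namely Stmn1 (2.01), Tuba1b (1.71), Cks1b (1.504) and Bub1 (1.36), with a median of 0.39 beside 0.16 for all genes. This G2/M count was near the share of all genes, and the cyclins, Cdk1 and Top2a stayed within 2-fold. Of the cells 63.2% against 50% were cycling, and 73.7% against 52.9% were past the S phase rule. With a pseudocount of 10, or by the log2 of the mean TPM, 6 S phase members were past 2-fold.

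CDP and pDC of the same run (58 and 24 cells) differed in replication genes. Of the S phase members 15 of 20 were past 2-fold higher in CDP, where 24% of 11499 genes were, and none lower, where 3.64% of genes were. The S phase median was 1.75 and that of all genes 0.39. Mcm4 differed by 3.39, with medians of 70.2 TPM (0 to 1129) and 0.74 TPM (0 to 570), Mcm3 by 3.12 and Rfc2 by 3.01. Tyms (0.05) and Rrm2 (0.42) were the smallest. Of the 24 G2/M members, 23 of which passed the filter, 4 were higher, a count below the share of all genes: Stmn1 (4.30), Cks1b (2.57), Tuba1b (2.26) and Kif23 (1.28). Birc5 alone was lower (-1.18), near the share of all genes, and the median over the list was -0.03. Birc5 had medians of 1.90 TPM (0 to 1082) in CDP and 7.32 TPM (0 to 2194) in pDC. Of 40 other mitosis genes 3 and of 30 replication genes 13 were past 2-fold higher. Tfdp1 was the regulator with the largest difference (2.13). After the median of all genes was subtracted, 3 G2/M members were higher and 4 lower, and with a pseudocount of 0.1 there were 7 and 4.

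The other 4 contrasts join gates of separate runs, so that gate and run cannot be told apart. cMoP and GMP were both fully cycling. For S phase members the counts were near or below the share of all genes: 4 of 20 were past 2-fold higher in cMoP, Uhrf1 (2.66), Hells (1.65), Rrm2 (1.13) and Mcm4 (1.13), and 2 lower, Chaf1b (-1.20) and Mcm2 (-1.14), where 18.1% of 12169 genes were higher and 20.7% lower. Of the 24 G2/M members Top2a (2.604), Mki67 (1.80), Kif11 (1.24) and Nusap1 (1.13) were higher and 11 were lower, among them Cks2 (-2.80), Ccna2 (-2.66), Cdc20 (-2.62) and Ube2c (-2.37). Top2a had medians of 364 TPM (2.28 to 5100) in cMoP and 80.6 TPM (0 to 691.9) in GMP, and Cks2 of 163.8 TPM (0 to 890) and 715 TPM (229 to 3713). The medians of the lists were 0.08 and -0.82, beside 0.04 for all genes.

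cMoP against SiglecH-Ly6C+ pre-DC were higher in all 20 S phase members, each past 2-fold, where 37.2% of 12070 genes were higher and 2.7% lower, with a median of 3.89 beside 0.65 for all genes; Rrm2 differed by 5.15 and Rfc2 by 4.76. Of the G2/M members 13 of 24 were higher and none lower, with a median of 1.07, led by Aurkb (3.20) and Cdk1 (2.78), while Kif23 (-0.79) and Cenpf (-0.30) leaned the other way. By the log2 of the mean TPM the G2/M median was -0.45 and 8 members were past 2-fold lower, so the direction of that list changes with the scale. SiglecH+Ly6C- pre-DC against pDC were past 2-fold higher in 18 of 20 S phase members, led by Mcm5 (3.27) and Mcm4 (3.19), and in 9 of 24 G2/M members, led by Stmn1 (4.52) and Cks1b (2.40), where 17.6% of 11532 genes were higher; none was lower, where 2.26% of genes were. The list medians were 1.91 and 0.88, beside 0.31.

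SiglecH-Ly6C- marrow pre-DC against blood pre-DC were past 2-fold higher in 16 of 20 S phase and 21 of 24 G2/M members, where 18.4% of 10453 genes were higher, and lower in none, where 5.53% of genes were. Mcm7, Rrm2, Ccna2, Ccnb2, Bub1, Cdc20, Cenpe, Nusap1 and Plk1 are listed at 0 in all 16 blood cells, so no fold is given for them. The counts above still include those of them, such as Rrm2, whose difference in mean log2(TPM + 1) reached 1. In all, 7 S phase and 15 G2/M members reached 10 TPM in no blood cell. Stmn1 differed by 6.79, with 67.1% of the marrow cells and 1 of 16 blood cells (6.25%) at 10 TPM or more. Pcna differed by 3.38, at 55.7% and 18.8% of cells. The blood cell with the most S phase members had 5, and the blood cell with the most G2/M members had 3. The blood cells had a median of 3648.5 genes and the SiglecH-Ly6C- marrow pre-DC one of 4177. Some blood cells had fewer genes than any cell of that marrow gate. The part of depth in these differences was not tested. The blood gate was sorted without SiglecH and Ly6C, so it has no matching marrow gate.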

How the data were processed

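Single cells were sequenced from 11 marrow gates and 1 blood gate on C1 chips made for cells of 5 to 10 µm, and only cells with good cDNA were sequenced, per the labels' protocols. The authors deposited 1 TPM value for each symbol in each cell. The submitters' processing notes name RSEM 1.2.19 and GRCm38, and the aligner and annotation were not given in the sources used here. TPM keep no counts, so depth is unknown and genes at 1 TPM or more (1001 to 9977 per cell) stand in for it. Totals per cell were 997617 to 1000000 TPM, and 44 symbols looked like averages of several entries, none of them a member.

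Each gate was treated as 1 sample, since no label names an animal and a replicate number only names a cell; no p-value was computed. Levels are means of log2(TPM + 1), with a pseudocount of 1. Cycling and S phase rules, contrasts (at least 1 in log2, genes at 1 TPM in 10% of cells) and motif searches were run in Python 3.11.15 with scipy 1.17.1, numpy 2.4.6, matplotlib 3.10.9 and pandas 2.3.3. The code of the contrasts and of the cycling rule was run on simulated data with planted changes. The planted cycling values came from GMP, which all pass the rule, so this checks the code and not the rule. No doublet caller was run. The members, the partner lists and the gene sets were chosen with earlier results of these data known. All 44 members could be named. Of the partner lists, those with the 2 highest and 2 lowest differences could be, and outside the lists the 10 genes with the highest correlation to each member count, without predicted genes and pseudogenes; some genes these rules pick are not reported here. Thresholds, pseudocounts, size factors from 496 genes, cell filters and the left-out members were varied as alternatives. Promoters are those of RefSeq for the start that its table lists at the top for each gene.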

Additional observations from a re-analysis of the deposited data

Results flagged for a closer look

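Mcm4, a helicase gene of the S phase list, differed with Ly6C in opposite directions in the SiglecH+ and the SiglecH- pre-DC. The difference in mean log2(TPM + 1), Ly6C- minus Ly6C+ over all cells of the gates, was 1.44 in SiglecH+ cells and -1.32 in SiglecH- cells. Of the 20 S phase members 8 had opposite signs in the SiglecH+ and SiglecH- cells, and of the 24 G2/M members 2; Mcm4 was the member for which both differences were at least 1 in size. The difference between them was not tested, and the SiglecH- gates come from separate runs, so that there the gate cannot be told apart from the run. Of the SiglecH+Ly6C- cells, 51 share the run of the SiglecH+Ly6C+ cells and 19 that of the SiglecH-Ly6C- cells, so the SiglecH+ value also mixes runs.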

How the results depend on the processing

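The deposited TPM give no depth, 1 sample a gate gives no spread between animals, and the number of genes per cell limits how many members a cell can show. Of the alternative cycling shares 75 moved by less than their interval, and 47 did not, and of the S shares 55 and 40. At 1 TPM in place of 10 the cycling share was 60% in LMPP, 100% in CLP, 91.4% in CDP, 97.1% in SiglecH-Ly6C+, 95.6% in SiglecH+Ly6C+, 91.4% in SiglecH+Ly6C- and 90% in SiglecH-Ly6C- pre-DC, 31.2% in blood pre-DC and 74.1% in pDC. At 50 TPM it was 25.9% in CDP, 47.1% in SiglecH+Ly6C- pre-DC and 86.7% in pre-pro-B cells, and at 100 TPM, added after seeing the data, 92.4% in cMoP, 22.4% in CDP, 50% in SiglecH-Ly6C+ and 45.7% in SiglecH+Ly6C- pre-DC and 86.7% in pre-pro-B cells. With at least 3 members it was 67.7% in LMPP, 87.5% in CLP, 86.2% in CDP, and 92.6%, 78.6% and 67.1% in SiglecH-Ly6C+, SiglecH+Ly6C- and SiglecH-Ly6C- pre-DC. With at least 8 it was 37.5% in CLP, 20.7% in CDP, 51.5% in SiglecH-Ly6C+ and 35.7% in SiglecH+Ly6C- pre-DC and 83.3% in pre-pro-B cells. With at least 15, added after seeing the data, it was 15.4% in LMPP, 66.7% in GMP, 16.7% in CLP, 53% in cMoP, 10.3% in CDP, 29.4% and 22.9% in Ly6C+ and Ly6C- pre-DC without SiglecH, 46.7% and 25.7% in those with it, and 60% in pre-pro-B cells. Without Cks1b, Cks2, Stmn1 and Tuba1b it was 37.5% in CLP, 93.9% in cMoP, 19% in CDP, 54.4% in SiglecH-Ly6C+ and 34.3% in SiglecH+Ly6C- pre-DC and 76.7% in pre-pro-B cells. In cells with at least 4000 genes it was 84.6% in LMPP, 100% in CLP and 68.1% in SiglecH-Ly6C- pre-DC.

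The S share at 1 TPM was 78.5% in LMPP, 95.8% in CLP, 96.6% in CDP, 92.6% and 84.3% in Ly6C+ and Ly6C- pre-DC without SiglecH, 93.3% and 98.6% in those with it, 37.5% in blood pre-DC and 100% in pre-pro-B cells and pDC. At 50 TPM it was 60.3% in CDP, 42.2% in SiglecH+Ly6C+ and 0% in blood pre-DC, and at 100 TPM, added after seeing the data, 41.5% in LMPP, 92.4% in cMoP, 55.2% in CDP, 30.9%, 38.6%, 40% and 57.1% in the same pre-DC gates and 0% in blood pre-DC. With at least 3 members it was 76.9% in LMPP, 87.5% in CLP, 93.1% in CDP, 79.4%, 74.3%, 77.8% and 91.4% in these gates, 31.2% in blood pre-DC and 40.7% in pDC. With at least 8 it was 44.6% in LMPP, 56.2% in CLP, 60.3% in CDP, 36.8% and 34.3% in SiglecH-Ly6C+ and SiglecH-Ly6C- pre-DC, 0% in blood pre-DC and 63.3% in pre-pro-B cells. In cells with at least 4000 genes it was 100% in LMPP and CLP and 68.1% in SiglecH-Ly6C- pre-DC.

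By the log2 of the mean TPM, the S phase median was 0.43 for GMP minus CLP, 0.34 for GMP minus pre-pro-B, 1.35 for cMoP minus SiglecH-Ly6C+ pre-DC and 4.20 for SiglecH-Ly6C- minus blood pre-DC. The G2/M median was 0.51 for GMP minus CLP, 5.40 for SiglecH-Ly6C- minus blood pre-DC and, reversed, -0.45 for cMoP minus SiglecH-Ly6C+ pre-DC. In cells with at least 4000 genes the medians for GMP minus CLP were 0.49 and 0.38, and with a pseudocount of 10 the S phase median for cMoP minus SiglecH-Ly6C+ pre-DC was 2.23. The other alternative medians, 52 for S phase and 54 for G2/M members, moved by less than the spread over cells. That spread is the SD over cells of the mean of the list, pooled over both gates. It is a wide limit and does not measure the uncertainty of a median. Counts of members past 2-fold changed by more than 1.5 times, from the main value to the alternative, as follows. By the log2 of the mean TPM: in GMP minus CLP from 19 to 2 S phase and from 21 to 6 G2/M members higher; in GMP minus pre-pro-B from 18 to 2 S phase and 5 to 0 G2/M higher and 6 to 14 G2/M lower; in pre-pro-B minus CLP from 4 to 1 S phase higher; in CDP minus pDC from 15 to 9 S phase higher and 1 to 9 G2/M lower; in SiglecH+Ly6C- minus SiglecH+Ly6C+ from 17 to 4 G2/M lower; in SiglecH+Ly6C- minus SiglecH-Ly6C- from 14 to 6 S phase higher; in cMoP minus GMP from 2 to 0 S phase and 11 to 5 G2/M lower; and in cMoP minus SiglecH-Ly6C+ from 13 to 1 G2/M higher and 0 to 8 lower. With a pseudocount of 10: in GMP minus pre-pro-B 5 to 0 G2/M higher, in pre-pro-B minus CLP 4 to 1 S phase higher, in CDP minus pDC 1 to 0 G2/M lower, in SiglecH+Ly6C- minus SiglecH+Ly6C+ 10 to 4 S phase higher and 17 to 6 G2/M lower, in SiglecH+Ly6C- minus SiglecH-Ly6C- 14 to 6 S phase and 4 to 2 G2/M higher, in cMoP minus GMP 2 to 0 S phase lower and 4 to 2 G2/M higher, and G2/M higher 13 to 6 in cMoP minus SiglecH-Ly6C+ and 9 to 5 in SiglecH+Ly6C- minus pDC. With a pseudocount of 0.1: 1 to 2 S phase lower in pre-pro-B minus CLP, 4 to 7 G2/M higher and 1 to 4 lower in CDP minus pDC, and 9 to 22 G2/M higher in SiglecH+Ly6C- minus pDC. In cells with at least 4000 genes: 19 to 8 S phase and 21 to 8 G2/M higher and 0 to 2 G2/M lower in GMP minus CLP, and lower G2/M members from 1 to 7 in CDP minus pDC and 0 to 1 in cMoP minus SiglecH-Ly6C+, with 2 to 5 S phase lower in cMoP minus GMP. After the median of all genes was subtracted, added after seeing the data: 0 to 1 G2/M lower in GMP minus CLP, 18 to 11 S phase and 5 to 0 G2/M higher and 6 to 12 G2/M lower in GMP minus pre-pro-B, 1 to 4 G2/M lower in CDP minus pDC, and 13 to 7 G2/M higher and 0 to 1 lower in cMoP minus SiglecH-Ly6C+. With size factors the all-gene median moved by -0.19 in CDP minus pDC and -0.15 in SiglecH+Ly6C- minus pDC, and lower G2/M members in the former from 1 to 3. The cause of these changes was not tested. Pre-pro-B cells, with too few cells of that depth, gave no value at 4000 genes or more, nor did their contrasts. No paired analysis was possible because each gate is 1 sample and no result comes from a test.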
